A study of Arabidopsis thaliana with 12 samples.

Results

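Whole Arabidopsis thaliana seedlings of the genotype phod2 were compared with the control genotype KC under phosphate supply, across all genes measured by RNA sequencing. The 2 groups were phod2 P+ and KC P+, with 3 libraries each, chosen by the genotype and condition in the sample titles, and they are 6 of the 12 libraries of the series. The other 6 are phod2 P- and KC P-, again 3 each. Seedlings were 8 days old and unsorted, and 1.3 µg of total RNA entered each library. P+ was read as phosphate supply and P- as low phosphate from the study's title and its mention of HP and LP conditions. The labels give no phosphate concentration, do not spell out KC, and do not say which gene phod2 alters or whether it is 1 line. The deposited table heads the columns of KC P+ with WT, and if WT and KC differ, that difference is part of every value given here. The series title names LIP1P, a plastid lipoyl synthase, and phosphate homeostasis.

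Plants short of phosphate switch on a set of genes that take up, release and save phosphate. The transcription factor PHR1 drives much of this set by binding a short promoter element, and SPX proteins hold PHR1 back while the cell is rich in phosphate and its inositol pyrophosphate signals. The response also replaces membrane phospholipids with galactolipids and sulfolipids, adds root hairs, and interacts with the use of iron. Lipoyl synthases attach sulfur to the lipoyl cofactor that pyruvate dehydrogenase and related complexes need.

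In the P+ libraries, total counts ranged from 18120947 to 23327960, and 20891 of the 32833 genes in the table passed the filter on low counts and were tested. Levels below are CPM, counts scaled to the library size. A gene was called, and is said to have risen or fallen, when its p from the quasi-likelihood test of edgeR, adjusted over all tested genes by the method of Benjamini and Hochberg, was at most 0.05 and the fold was at least 2. The 6 libraries separated by genotype on the first principal component, which took 74.7% of the variance, with phod2 between 40 and 41.8 and KC between -41.8 and -39.9. Over all 12 libraries of the fit, and not the P+ libraries alone, the common biological coefficient of variation was 8.47%. The design text states biological replicates for each genotype but not whether these were separate pools of plants.

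More genes fell than rose in phod2 under phosphate supply. Of 20891 tested genes, 1545 (7.4%) were called, of which 413 (1.98%) rose and 1132 (5.42%) fell. At 4-fold or more, 132 rose and 287 fell. The median log2 fold of all tested genes was 0.036. The 3 libraries of one group lay outside the range of the other for 1538 of the called genes, against 53.2% of all tested genes. The calls were made from the same libraries, so this count is no further support for them.

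**Figure D1:**
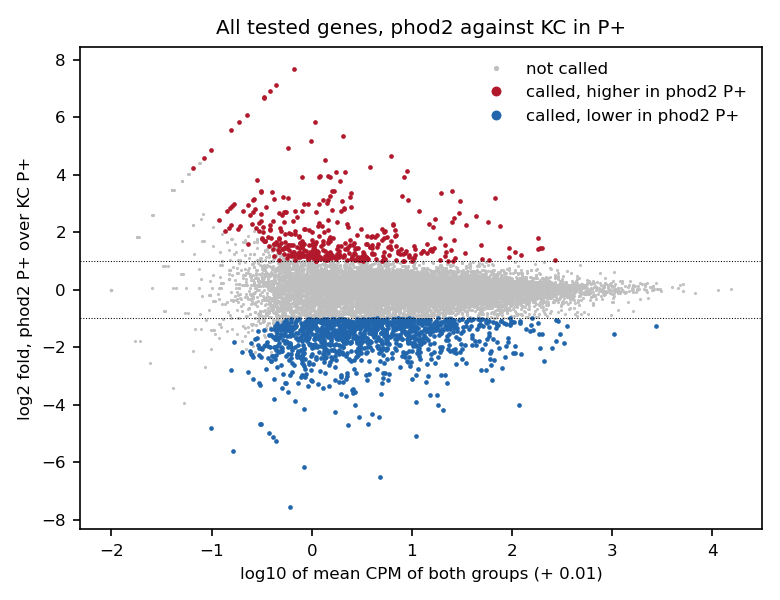
Log2 fold of phod2 P+ over KC P+ against the log10 of the mean level of both groups for 20891 tested genes, with dotted lines at 2-fold. The 413 called genes above the upper line and the 1132 below the lower line are coloured, and the diagonal row at the upper left holds genes without a count in KC P+.

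LIP1P (AT5G08415), which lies at 2710781 to 2713255 on chromosome 5 and is named in the series title, was lower in phod2 by less than 2-fold. It had 20.8, 21.4 and 19.4 CPM in phod2 P+, against 33.6, 31.9 and 34.8 CPM in KC P+. The groups did not overlap, and the log2 fold was -0.70 ± 0.0677 (SE), with an edgeR adjusted p of 2.5e-06, so LIP1P missed the fold limit and was not called. None of the 8 tested lipoyl synthase and transferase genes, 7 plastid pyruvate dehydrogenase genes, 16 genes of mitochondrial lipoylated complexes, 20 plastid fatty acid synthesis genes and 12 photorespiration genes was called. Their medians of log2 fold were 0.016, -0.005, -0.097, -0.058 and 0.145. LIP1, the mitochondrial lipoyl synthase gene, had 132, 137 and 134 CPM in phod2 P+ and 126, 125 and 130 CPM in KC P+, with a log2 fold of 0.08 ± 0.0757.

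Genes of the phosphate starvation response were higher in phod2 although phosphate was supplied, in signalling, phosphate release and membrane lipid replacement, while the main uptake transporter gene fell. Of 16 tested signalling genes 4 rose and none fell, of 15 phosphatase and ribonuclease genes 4 rose and none fell, and of 20 lipid remodelling genes 6 rose and 1 fell. The background was 1.98% higher and 5.42% lower of all tested genes. The medians of log2 fold of these lists were 0.003, 0.659 and 0.303, beside 0.036 for all tested genes.

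Among the sensors, SPX1 (AT5G20150), whose protein binds inositol pyrophosphates and holds PHR1 back, had 55.9, 51.8 and 54.2 CPM in phod2 P+ and 6.59, 6.66 and 5.8 CPM in KC P+. All phod2 libraries lay above all KC libraries, and the rise was 8.51-fold (log2 3.09 ± 0.0963, edgeR adjusted p = 2.97e-11). SPX3 (AT2G45130), a relative of SPX1, was scarce, with 0.99, 1.56 and 0.985 CPM in phod2 P+ and 0.0851, 0.218 and 0.218 CPM in KC P+. It rose 6.71-fold (log2 2.75 ± 0.438, edgeR adjusted p = 0.000288). SPX2 had a log2 fold of 0.85 ± 0.0744 and SPX4, another member of the family, -0.24 ± 0.103, and neither was called. PHR1 itself stood at 50.5, 49.5 and 49.9 CPM in phod2 P+ and 47.3, 52.3 and 49.9 CPM in KC P+, so its groups overlapped.

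The non-coding RNAs IPS1 and AT4, which sequester the microRNA that targets the PHO2 transcript, rose as well. IPS1 (AT3G09922) had 4.53, 3.17 and 5.42 CPM in phod2 P+, against 0.553, 0.491 and 0.349 CPM in KC P+, a 9.36-fold rise (log2 3.23 ± 0.35, edgeR adjusted p = 8.41e-06). AT4 (AT5G03545) had 49.5, 52.2 and 52.9 CPM in phod2 P+, against 7.87, 9.6 and 7.02 CPM in KC P+, a 6.35-fold rise (log2 2.67 ± 0.11, edgeR adjusted p = 4.99e-10). For both, every phod2 library was above every KC library. PHO2, which encodes an enzyme that marks phosphate transporters for degradation, had a log2 fold of -0.16 ± 0.171 and was not called.

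The transporters did not move as 1 group. Of 7 tested genes of the PHT1 uptake family with their traffic factor PHF1, 1 rose and 2 fell, and 3 further members did not pass the filter. PHT1;4 (AT2G38940), a high-affinity root transporter gene, had 22, 25.9 and 25.1 CPM in phod2 P+ and 8.93, 9.98 and 7.94 CPM in KC P+ and rose 2.73-fold (log2 1.45 ± 0.0907, edgeR adjusted p = 3.43e-08). PHT1;1 (AT5G43350), a main uptake transporter gene of roots, had 36.1, 37.8 and 39 CPM in phod2 P+ and 80.8, 80.8 and 79.5 CPM in KC P+ and fell 2.13-fold (log2 -1.09 ± 0.0656, edgeR adjusted p = 2.24e-08). PHT1;2 (AT5G43370) fell 3.65-fold at levels of at most 1.09 CPM. PHT1;1, PHT1;2 and PHT1;3 are close copies on chromosome 5, and reads may have been split among them in the counting.

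Among export and organelle transporters, 1 of 16 tested genes rose and 1 fell. ATPS3 (AT3G47420), annotated by RefSeq as a glycerol-3-phosphate permease, had 35.1, 34.8 and 37.7 CPM in phod2 P+ and 3.27, 3.49 and 3.71 CPM in KC P+ and rose 10.3-fold (log2 3.36 ± 0.0987, edgeR adjusted p = 2.46e-11). RHS15 (AT4G25220) of the same family fell 2.11-fold, with an edgeR adjusted p of 0.00843. That call was lost without phod2 P+ replicate 2 and without KC P+ replicate 3, each at a log2 fold of -0.97. PHO1, which loads phosphate into the xylem, had 66.2, 62.4 and 66.6 CPM in phod2 P+, against 116, 113 and 116 CPM in KC P+. Its groups did not overlap, but its log2 fold of -0.82 ± 0.106 was under the fold limit.

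Phosphate-releasing enzymes held some of the steepest rises. PS2 (AT1G73010), a pyrophosphatase gene, had 13.7, 18 and 15.5 CPM in phod2 P+ and 1.28, 0.927 and 0.872 CPM in KC P+ and rose 15.2-fold (log2 3.92 ± 0.149, edgeR adjusted p = 2.24e-10). PAP17 (AT3G17790), a purple acid phosphatase gene, had 48.2, 45.6 and 44.4 CPM in phod2 P+ and 4.13, 3.76 and 4.8 CPM in KC P+ and rose 10.8-fold (log2 3.44 ± 0.0918, edgeR adjusted p = 1.27e-11). In both genes the groups were far apart. PEPC1 (AT1G17710), annotated by RefSeq as a phosphoethanolamine and phosphocholine phosphatase, rose 6.99-fold, with 3.07, 3.7 and 4.26 CPM in phod2 P+ and 0.638, 0.273 and 0.611 CPM in KC P+. PAP14 was called at a log2 fold of 1.8 ± 0.58, but its groups touched, with 0.208, 0.633 and 0.627 CPM in phod2 P+ and 0.213, 0.0546 and 0.131 CPM in KC P+. The call of PAP14 was lost without phod2 P+ replicate 2 or 3 and without KC P+ replicate 2 or 3, at log2 folds of 1.60, 1.58, 1.5 and 1.76. PAP12, a secreted acid phosphatase gene, had a log2 fold of 0.80 ± 0.0604 and PAP26, the main intracellular one, -0.14 ± 0.0524, and neither was called.

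Lipid remodelling genes that rose covered galactolipid, sulfolipid and phospholipid-breakdown steps. MGD3 (AT2G11810), a galactolipid synthase gene, had 13.9, 15.5 and 13.4 CPM in phod2 P+, against 1.49, 1.31 and 1.66 CPM in KC P+, a 9.51-fold rise (log2 3.25 ± 0.122, edgeR adjusted p = 2.09e-10). GDPD1 (AT3G02040), a glycerophosphodiesterase gene, had 123, 117 and 126 CPM in phod2 P+, against 12.2, 13.9 and 14.4 CPM in KC P+, a 9.05-fold rise (log2 3.18 ± 0.0938, edgeR adjusted p = 2.46e-11). No phod2 library of either gene came near the KC range. PLDP2, a phospholipase D gene, rose 4.85-fold and MGD2 2.62-fold. SQD1, which makes the sulfolipid head group, had 172, 169 and 170 CPM in phod2 P+ and 73.3, 73.7 and 76.1 CPM in KC P+, a log2 fold of 1.2 ± 0.0479. DGD1 was just past the limit at a log2 fold of 1.01 ± 0.1. GDPD3, at no more than 1.26 CPM in any P+ library, fell at a log2 fold of -1.31 ± 0.351, and without phod2 P+ replicate 2 no gene of this list fell.

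Of 11 tested phosphate starvation transcription factor genes, 1 rose and 2 fell. HRS1, which encodes a repressor in nitrate and phosphate signalling, had 11.2, 10.1 and 10.5 CPM in phod2 P+ and 34.9, 36.7 and 34.9 CPM in KC P+ and fell 3.34-fold (log2 -1.74 ± 0.101, edgeR adjusted p = 1.55e-08). WRKY75, an activator of phosphate starvation genes, fell 3.17-fold, and its phod2 libraries, at 1.15, 0.828 and 1.25 CPM, lay below the KC libraries, at 3.53, 3.76 and 3.05 CPM. MYB62, a repressor, rose 2.24-fold, a call that was lost without phod2 P+ replicate 3 and without KC P+ replicate 1 or 3, at log2 folds of 1.1, 1.03 and 1.11. None of the 11 genes of local phosphate sensing at the root tip was called, and their folds lay between -0.37 and 0.32 on the log2 scale.

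**Figure D2:**
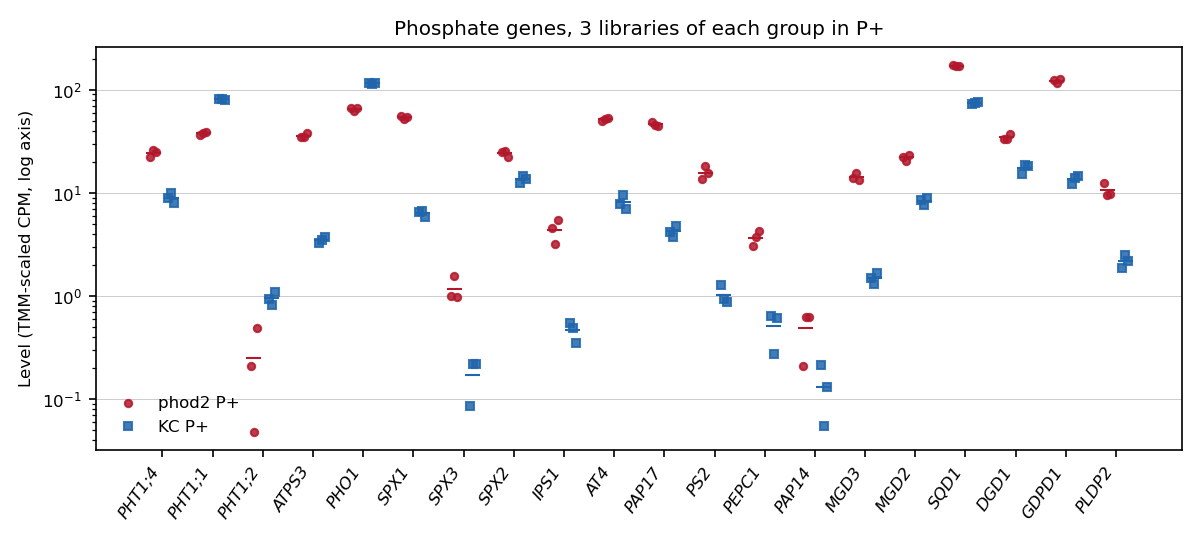
Level in each P+ library (CPM, log axis) of 20 phosphate genes, with phod2 P+ as circles left of KC P+ as squares and a bar at each group mean of 3 libraries. SPX1, IPS1, AT4, PAP17, PS2, MGD3 and GDPD1 lie well above KC in all phod2 libraries, PHT1;1, PHT1;2 and PHO1 lie below it, and only PAP14 overlaps.

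The same phosphate genes can be set beside the response of KC itself to low phosphate, a comparison that shares the KC P+ libraries. Phod2 P+ over KC P+ gave log2 folds of 3.09 for SPX1, 3.23 for IPS1, 3.44 for PAP17, 3.92 for PS2, 3.36 for ATPS3, 3.18 for GDPD1 and 3.25 for MGD3. KC P- over KC P+ gave 4.41 for SPX1, 4.59 for IPS1, 4.94 for PAP17, 6.56 for PS2, 5.65 for ATPS3, 3.04 for GDPD1 and 2.63 for MGD3. PHT1;1 and PHT1;2, which fell in phod2 P+, stood at 0.69 and 3.22 in KC P- over KC P+. The levels of MGD3 and GDPD1 were 14.3 and 122 CPM in phod2 P+ and 9.33 and 111 CPM in KC P-. The P- libraries of KC also differed from its P+ libraries in clock genes, with 9 of 13 morning genes higher and 11 of 14 day and evening genes lower, beside 10.9% and 9.6% of all tested genes, at medians of log2 fold of 5.657 and -3.788. The part of this clock difference in the KC values was not tested. Between phod2 and KC in P+, only LNK1 among the morning genes and GI among the evening genes was called, and both fell. GI, at a log2 fold of -1.0, was under the limit without phod2 P+ replicate 2 or 3, KC P+ replicate 2 or 3 or KC P- replicate 2, at log2 folds between -1.0 and -0.94.

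Promoters of the genes that rose were searched for GNATATNC, the element bound by PHR1, where N is any base. The pattern reads the same on both strands. Among the phosphate genes that were called and carry the element, 7 had no other annotated gene in the window, namely GDPD1, SPX3, PS2, AT4, PLDP2, HRS1 and PHT1;2. Promoters of 4 of them are shown as examples, picked after their values were seen. These are the 250 bases before the start of GDPD1, SPX3 and PS2, which rose, and of PHT1;2, which fell, and capitals mark the element. Sequences are from the RefSeq TAIR10.1 genome, written in the direction of the gene, at chr3:350011-350260 (minus strand), chr2:18606160-18606409 (plus), chr1:27466349-27466598 (minus) and chr5:17415448-17415697 (plus).
GDPD1: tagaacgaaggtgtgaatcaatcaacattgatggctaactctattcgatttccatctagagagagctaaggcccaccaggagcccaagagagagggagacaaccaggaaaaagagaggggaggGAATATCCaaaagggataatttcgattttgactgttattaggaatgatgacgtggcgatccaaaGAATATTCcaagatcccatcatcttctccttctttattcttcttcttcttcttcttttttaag
SPX3: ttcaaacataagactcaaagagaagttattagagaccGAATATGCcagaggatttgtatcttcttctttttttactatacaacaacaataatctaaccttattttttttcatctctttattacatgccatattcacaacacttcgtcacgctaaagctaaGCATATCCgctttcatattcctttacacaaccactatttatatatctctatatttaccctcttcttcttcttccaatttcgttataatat
PS2: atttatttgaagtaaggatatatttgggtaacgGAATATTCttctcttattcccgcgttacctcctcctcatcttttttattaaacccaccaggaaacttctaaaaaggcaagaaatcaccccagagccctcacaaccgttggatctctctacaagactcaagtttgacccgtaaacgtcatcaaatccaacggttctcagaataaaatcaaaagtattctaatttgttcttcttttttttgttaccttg
PHT1;2: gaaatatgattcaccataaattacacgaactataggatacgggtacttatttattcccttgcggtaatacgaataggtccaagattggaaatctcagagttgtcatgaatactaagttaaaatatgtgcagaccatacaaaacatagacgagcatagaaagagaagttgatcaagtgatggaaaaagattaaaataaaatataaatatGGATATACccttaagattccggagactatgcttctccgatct
GDPD1 had the element starting 127 and 63 bases before the gene start, and SPX3 213 and 90 bases before it. PS2 had it 217 bases and PHT1;2 42 bases before the start.

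The element was present in 34 of 410 promoters of genes that rose, or 8.29% (95% Wilson interval 5.99% to 11.4%), in 67 of 1132 promoters of genes that fell, or 5.92%, and in 1148 of 20796 promoters of all tested genes, or 5.52%. Of the 17 phosphate-list genes that rose, 7 carried it within 250 bases, or 41.2% (21.6% to 64%). HRS1 and PHT1;2 of the same lists, which fell, carried it as well. The share among all members of these lists was not counted, so the element is not tied here to the direction of change. In a 500-base window, chosen after the data were seen, it was found before 16.6% of the genes that rose, 10.6% of those that fell, 10.9% of all tested genes and 8 of the 17 phosphate-list genes. A match is a description of the letters and not evidence of binding, and the absence of the letters says nothing of the factor.

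Several iron uptake genes were higher in phod2 under phosphate supply. Of 20 tested iron uptake and coumarin genes, 4 rose and none fell, and of 19 iron regulators and small iron-response genes, 7 rose and none fell, beside 1.98% and 5.42% of all tested genes. The medians of log2 fold of these lists were 0.285 and 0.378. By adjusted p alone, 8 genes of the first list were higher and 5 lower. Its summed level was 992.8 to 1005 CPM in phod2 P+ and 1049 to 1061 CPM in KC P+. IRT1 (AT4G19690), the main iron transporter gene of the root surface, had 19.1, 20.6 and 21.5 CPM in phod2 P+ and 2.81, 3.11 and 3.31 CPM in KC P+ and rose 6.63-fold (log2 2.73 ± 0.101, edgeR adjusted p = 1.87e-10). FRO2 (AT1G01580), which reduces ferric iron before uptake, had 17.6, 16.7 and 15 CPM in phod2 P+ and 2.25, 1.47 and 1.79 CPM in KC P+ and rose 8.77-fold (log2 3.13 ± 0.183, edgeR adjusted p = 1.74e-08). CYP82C4 (AT4G31940), an enzyme that hydroxylates iron-binding coumarins, had 7.5, 7.26 and 7.08 CPM in phod2 P+ and 0.213, 0.327 and 0.567 CPM in KC P+ and rose 19.3-fold (log2 4.27 ± 0.21, edgeR adjusted p = 2.88e-09). Every phod2 library of these genes was above every KC library. AT3G12900, described in the deposited table as a 2-oxoglutarate and Fe(II)-dependent oxygenase, had 133 counts over the 3 phod2 P+ libraries and 2 counts over the KC P+ libraries, a ratio of 69.4 with a 95% counting interval of 18.8 to 579.

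Not every iron gene followed. Among bHLH regulators that pair with FIT, BHLH38 rose 8.48-fold, BHLH100 by a log2 of 1.72 ± 0.246 and BHLH39 by 1.12 ± 0.166, while FIT itself had a log2 fold of -0.56 ± 0.135 and was not called. Of the small loci on the list, AT1G47400, AT1G47395, AT2G30766 and AT1G07367 rose at log2 folds of 2.74, 3.37, 1.88 and 3.17. AT1G47395, AT1G47400 and AT1G07367 lie close together on chromosome 1, starting at 17382998, 17385707 and 17388989. The deposited table describes AT1G47400 as best matching AT1G47395, and reads may have been split between them. The 7 rises counted for this list include these linked loci. NAS2 and NAS4, which make the metal chelator nicotianamine, rose 3.72-fold and 2.68-fold. NAS2 stood at 10.8, 11 and 10.7 CPM in phod2 P+ and 2.72, 2.78 and 3.18 CPM in KC P+, without overlap. The ferritin genes FER1 and FER3, for iron storage, had log2 folds of -0.77 ± 0.0905 and -0.59 ± 0.0601, under the fold limit, and VTL5, a vacuolar iron transporter-like gene, fell 2.52-fold. F6'H1 and PDR9, which make and export coumarins, had log2 folds of -0.48 and -0.83 and were not called. Among 17 zinc and copper genes none rose, and ZIP3 and FRO5 fell 5.31-fold and 3.01-fold. Leaving out any 1 library other than phod2 P- replicate 1 or 2 gave 1 rise in that list.

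Flavonoid genes split by step. Of 12 early flavonoid genes 6 fell and none rose, with a median log2 fold of -0.965, whereas of 15 late anthocyanin genes 2 rose and none fell, with a median of 0.675. Of all tested genes, 1.98% rose and 5.42% fell. CHS (AT5G13930), the first enzyme of the pathway, had 80, 82 and 82.5 CPM in phod2 P+ and 214, 226 and 220 CPM in KC P+ and fell 2.7-fold (log2 -1.43 ± 0.0948, edgeR adjusted p = 5.91e-08). CHIL fell 2.51-fold and MYB12, an activator of the early genes, 2.76-fold. F3H fell 5.62-fold, at levels under 1 CPM in all P+ libraries, and lost its call without phod2 P+ replicate 2 and without KC P+ replicate 3, at log2 folds of -2.15 and -2.22. FLS1, the flavonol synthase gene, stood at 19.5, 17.2 and 19.1 CPM in phod2 P+ and 44.5, 46.9 and 47.5 CPM in KC P+, a fall with a log2 fold of -1.31 ± 0.0713.

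On the anthocyanin side, TT8, a bHLH activator, rose 2.36-fold, with 1.82, 1.07 and 1.3 CPM in phod2 P+ and 0.851, 0.327 and 0.523 CPM in KC P+. TT19, a glutathione transferase needed for pigment transport, sat at the fold limit with a 2.01-fold rise, and was under it without phod2 P+ replicate 2, KC P+ replicate 1, KC P+ replicate 3 or phod2 P- replicate 2, at log2 folds of 0.99, 1.0, 0.90 and 0.99. DFR and LDOX, the core enzymes of this branch, had log2 folds of 0.67 ± 0.0741 and 0.74 ± 0.0985 and were not called.

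**Figure D3:**
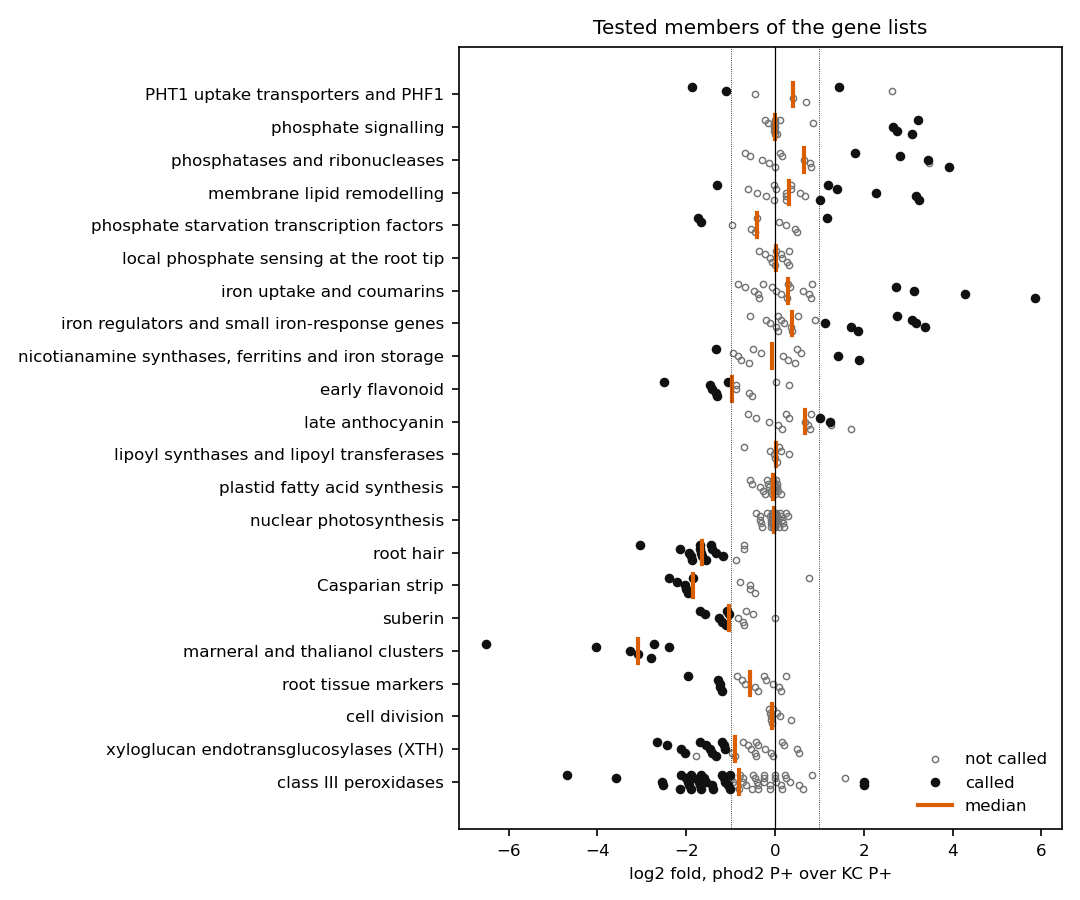
Log2 fold of phod2 P+ over KC P+ of each tested member of 22 gene lists, filled where called, with the median of each list as a bar. Members of the phosphate and iron lists reach far to the right, the root hair, Casparian strip, suberin and triterpene lists lie to the left, and the photosynthesis, fatty acid and cell division lists stay near 0.

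Genes of differentiated root tissue were lower in phod2. Of 17 root hair genes 14 fell, of 11 Casparian strip genes 6 fell, of 13 suberin genes 7 fell, and all 7 genes of the marneral and thalianol clusters, which make root triterpenes, fell, with no rise in any of these lists, beside 5.42% of all tested genes that fell. Their medians of log2 fold were -1.651, -1.857, -1.03 and -3.095, beside 0.036 for all tested genes. Without KC P+ replicate 2, 4 suberin genes fell. RSL2 (AT4G33880), a regulator of root hair growth, had 0.573, 0.195 and 0.493 CPM in phod2 P+ and 3.61, 3.16 and 3.71 CPM in KC P+ and fell 8.26-fold (log2 -3.05 ± 0.274, edgeR adjusted p = 1.25e-06). EXPA7, LRX1 and COBL9, which act in the wall of the growing hair, fell 3.7-fold, 3.85-fold and 3.91-fold. RSL4 and COW1, also hair genes, had log2 folds of -0.88 and -0.69 and were not called.

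CASP1 (AT2G36100), a scaffold of the Casparian strip of the endodermis, had 7.55, 7.7 and 8.73 CPM in phod2 P+ and 34.2, 32.5 and 29.3 CPM in KC P+. It fell 3.99-fold (log2 -2.0 ± 0.0863, edgeR adjusted p = 7.64e-10). CASP4 and CASP5, of the same family, fell 4.1-fold and 5.24-fold. MYB36, the regulator of this programme, had a log2 fold of -0.56 ± 0.148 and was not called. Of the suberin genes, ABCG6, GPAT5 and FAR5 fell 3.25-fold, 2.3-fold and 2.42-fold, and KCS20, a fatty acid elongase gene, had a log2 fold of 0.00 ± 0.0633. MYB41, a suberin regulator at no more than 1.13 CPM, fell 3.0-fold but lost its call when phod2 P+ replicate 1 or 2 or KC P+ replicate 2 or 3 was left out, at log2 folds of -1.52, -1.48, -1.48 and -1.35.

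The triterpene clusters had the lowest median of these 4 lists. MRN1 (AT5G42600), marneral synthase, had 0, 0.146 and 0.134 CPM in phod2 P+ and 9.82, 10.1 and 8.24 CPM in KC P+ and fell 91.2-fold (log2 -6.51 ± 0.28, edgeR adjusted p = 7.49e-10). Its neighbours CYP71A16 and CYP705A12 on chromosome 5 fell 8.55-fold and 16.3-fold. In the thalianol cluster, THAS1 had 20.9, 20.5 and 21.5 CPM in phod2 P+ and 136, 138 and 143 CPM in KC P+, and BAHD1 fell 9.57-fold. No phod2 library of these 5 genes reached the KC range.

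Root identity markers and meristem genes were closer together. Of 16 root tissue markers 5 fell and none rose, with a median log2 fold of -0.565, and the summed level of the list was 1731 to 1755 CPM in phod2 P+ and 3962 to 4026 CPM in KC P+. Most of this sum is PYK10, a beta-glucosidase of root ER bodies, which had 1610, 1600 and 1620 CPM in phod2 P+ and 3840, 3850 and 3800 CPM in KC P+ and fell 2.38-fold. PIN2, the auxin carrier of root epidermis, WER and COBL9 also fell, as did LBD29, which lost its call under 5 of the 6 omissions of a P+ library, at log2 folds between -1.39 and -0.92. SHR and SCR, the regulators of the inner root layers, had log2 folds of 0.09 and 0.13, PLT1, PLT2 and WOX5 of the stem cell niche -0.44, -0.21 and -0.05, and none of these was called. None of the 16 markers was at 0 in either group. All 9 cell division genes stayed within -0.13 and 0.36 on the log2 scale. None of the 42 nuclear photosynthesis genes was called, and their summed level was 95950 to 98100 CPM in phod2 P+ and 96080 to 97430 CPM in KC P+. In whole seedlings, fewer cells of a type and less RNA per cell cannot be told apart.

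**Figure D4:**
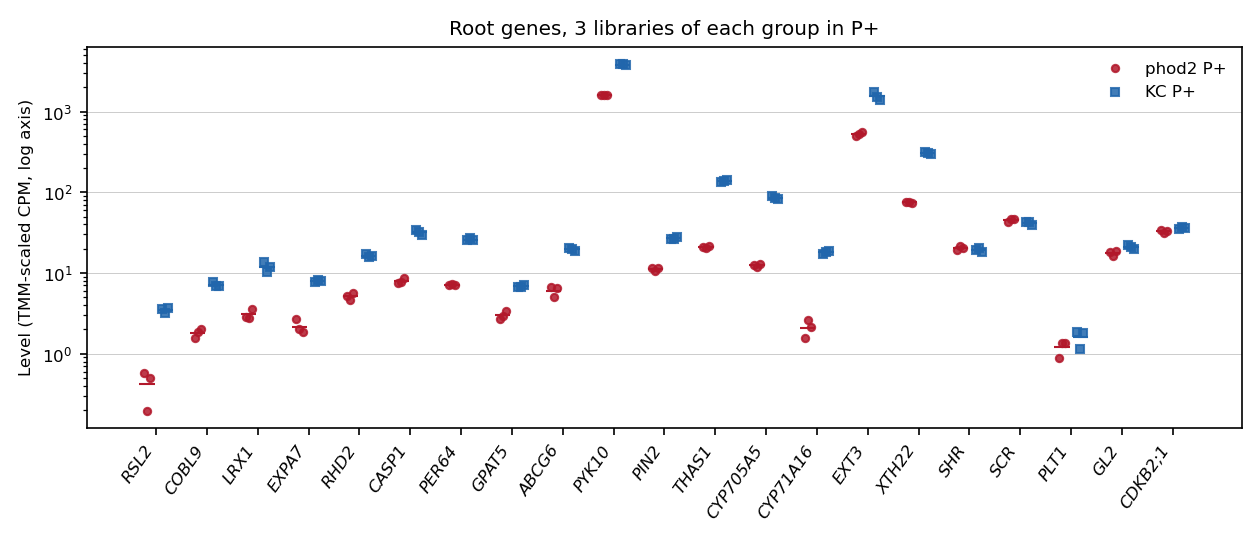
Level in each P+ library (CPM, log axis) of selected root and wall genes, with phod2 P+ as circles left of KC P+ as squares and a bar at each group mean of 3 libraries. Root hair, endodermis, triterpene and wall genes lie lower in all phod2 libraries, whereas SHR, PLT1 and the cell division gene CDKB2;1 lie close to or within the KC range.

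Wall genes fell widely. Of 29 tested xyloglucan endotransglucosylase genes (XTH), which cut and rejoin wall xyloglucan, 12 fell and none rose, and of 59 class III peroxidase genes, which cross-link wall polymers, 26 fell and 2 rose, beside 5.42% lower and 1.98% higher of all tested genes. XTH22 had 75.7, 75.7 and 73.4 CPM in phod2 P+ and 313, 306 and 301 CPM in KC P+ and fell 4.09-fold (log2 -2.03 ± 0.0625, edgeR adjusted p = 2.84e-11). XTH33, XTH21 and XTH23 fell 6.35-fold, 5.41-fold and 4.37-fold. PER24 fell 12-fold and PER27 5.88-fold, and PER5 had 1 count in phod2 P+ and 37 in KC P+, a 35.5-fold lower level with a counting interval of 5.98 to 1440. AGP30, an arabinogalactan protein gene of roots, had 0.729, 0.438 and 0.672 CPM in phod2 P+ and 22.8, 21.3 and 19.1 CPM in KC P+ and fell 34.1-fold (log2 -5.09 ± 0.145, edgeR adjusted p = 2.31e-11). Close copies in the XTH and peroxidase families may share reads.

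Some of these were abundant transcripts. EXT3, the extensin of the primary wall, averaged 329 FPKM (the authors' unit, scaled to gene length and library size) in phod2 P+ and 949 FPKM in KC P+ and fell 2.91-fold, and PYK10 averaged 909 FPKM in phod2 P+ and 2142 FPKM in KC P+. ATGRP9, AT2G43150, EXO, FLA9 and ATDR4, all of them among the 10 most abundant called genes by FPKM, fell between 2.15-fold and 3.62-fold. AT2G25510, AT5G42530 and GRP3S were the 3 of these 10 that rose, at 3.44-fold, 2.75-fold and 2.03-fold. GRP3S was under the limit without phod2 P+ replicate 2 or phod2 P- replicate 2, at log2 folds of 0.96 and 1.0. Of 28 aquaporin genes 5 fell and 2 rose, beside the same shares of all tested genes. The falls were led by PIP2-4, TIP2-3 and TIP4-1, at 6.81-fold, 5.79-fold and 4.12-fold, and the rises were TIP3-1 and TIP3-2, which are aquaporins of seeds. Only 1 rise was left without phod2 P+ replicate 1 or 3 or KC P+ replicate 2 or 3.

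Rises and falls were ranked among genes with a symbol whose groups did not overlap and whose higher group averaged at least 1 CPM. The 12 largest rises of that set included transporters and enzymes of several kinds. DTX3, a multidrug efflux carrier gene, had 2.03, 3.02 and 2.64 CPM in phod2 P+ and 0.128, 0.109 and 0.0872 CPM in KC P+ and rose 22.5-fold (log2 4.49 ± 0.324, edgeR adjusted p = 1.35e-07). NUDT24, a nudix hydrolase homolog, SULTR1;3, a phloem sulfate transporter gene, NDB4, an external mitochondrial NAD(P)H dehydrogenase gene, and HDG8, a homeobox gene, rose 16.9-fold, 15.6-fold, 15-fold and 15-fold. LTP4 and JAL12 both rose 10.8-fold. All of them stayed at or under 4.82 CPM in every P+ library. Among the 12 largest falls of the same set, CYP71A20 had no count in phod2 P+ and 78 counts in KC P+, which makes it at least 24.9-fold lower, and DTX20 had 1 count in phod2 P+ and 105 in KC P+, a 101-fold lower level with a counting interval of 17.7 to 4010. MLP328, a major latex-like protein gene, had 12, 15 and 14.5 CPM in phod2 P+ and 218, 219 and 230 CPM in KC P+ and fell 16.1-fold (log2 -4.01 ± 0.111, edgeR adjusted p = 1.85e-11). AIR1, a lipid-transfer-like gene induced by auxin, and CSLB5, a cellulose synthase-like gene, fell 18.3-fold and 20.2-fold. SCPL2, UGT91A1 and ROSY1 fell 26.1-fold, 14.8-fold and 12.7-fold.

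Other nutrient and stress lists are given beside the 1.98% of all tested genes that rose and the 5.42% that fell. Of 24 sulfur genes, LSU1, a marker of low sulfur, rose 5.1-fold (2 genes of the list rose without phod2 P+ replicate 3 or KC P+ replicate 3) and GGCT2;1, a glutathione-degrading enzyme gene, fell 4.01-fold. Of 13 nitrate genes, NRT2.1, a high-affinity transporter gene, rose 3.01-fold, with 5.52, 7.84 and 7.21 CPM in phod2 P+ and 2.3, 2.07 and 2.44 CPM in KC P+, and NRT1.5, which loads the xylem, fell 2.32-fold. Of 15 starch genes 3 rose, BAM5, GPT2 and GBSS1, at 4.86-fold, 4.2-fold and 2.21-fold, and GBSS1 was under the limit without KC P+ replicate 2, at a log2 fold of 0.97. Of 9 dark-inducible and carbon starvation genes 2 rose and none fell, with a median log2 fold of -0.215. The summed level of that list was lower in phod2, at 2536 to 2549 CPM in phod2 P+ and 3377 to 3407 CPM in KC P+. ASN1, the dark-inducible asparagine synthetase gene, had 156, 150 and 154 CPM in phod2 P+ and 60.9, 61.8 and 62.6 CPM in KC P+ and rose 2.48-fold. Of 8 cold and abscisic acid genes 4 rose and 1 fell. Their list as a whole, with 1 untested member, had a lower summed level in phod2. It was 851.2 to 875.6 CPM in phod2 P+ and 986.4 to 1026 CPM in KC P+. One of the rises, CBF2, at a log2 fold of 1.57 ± 0.474, lost its call without phod2 P+ replicate 2 or 3 or KC P+ replicate 1 or 3, at log2 folds of 1.49, 1.49, 1.31 and 1.47. COR15A had 276, 277 and 279 CPM in phod2 P+ and 106, 99.2 and 99.1 CPM in KC P+ and rose 2.73-fold, whereas KIN1 fell at a log2 fold of -1.39 ± 0.163. None of the 18 aliphatic and 9 indole glucosinolate genes, 13 large chaperone genes and 9 low-oxygen genes was called. In the chaperone list 1 gene fell without phod2 P+ replicate 2 and 1 rose without KC P+ replicate 1. Of 8 tested seed genes CRU1, a storage protein gene, rose 3.54-fold, with 2 or 3 genes of the list rising without phod2 P+ replicate 3, KC P+ replicate 1 or 3 or phod2 P- replicate 2. The summed level of the seed list was 23.25 to 25.94 CPM in phod2 P+ and 11.84 to 13.69 CPM in KC P+. The share of counts on plastid-encoded genes was 0.0374% to 0.0495% in phod2 P+ and 0.0325% to 0.0355% in KC P+, and 3 of 78 rose, PETN, NDHI and TRNS.2 (ATCG00290). The number that rose was 1 without phod2 P+ replicate 2, 8 without phod2 P+ replicate 3, 6 without phod2 P- replicate 2 and 5 without KC P- replicate 2. PETN lost its call without KC P+ replicate 1, at a log2 fold of 1.1. NDHI lost it without phod2 P+ replicate 1 or 2 or KC P+ replicate 1 or 2, at log2 folds of 1.33, 1.23, 1.30 and 1.16, and TRNS.2 without phod2 P+ replicate 2 or KC P+ replicate 2 or 3, at 0.96, 1.11 and 1.18.

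The genotype difference in P+ was then set beside that in P-. The group means of these contrasts come from separate libraries, but both rest on the spread estimated in 1 fit of all 12. In P-, 4.69% of the tested genes were called in phod2 against KC, of which 466 (2.23%) rose and 513 (2.46%) fell. Of the 413 genes that rose in P+, 192 also rose in P-, which is 46.5% of the P+ list and 41.2% of the P- list. Of the 1132 that fell in P+, 374 also fell in P-, 33% of the P+ list and 72.9% of the P- list. Only 3 and 2 genes were called in opposite directions. In phod2 P-, deviations of the libraries from their group mean tracked gene length. The Spearman correlation of deviation and length was -0.69 in replicate 2, 0.57 in replicate 1 and 0.58 in replicate 3. Each is over genes of 1 library, which share its preparation. Deviations from a group mean offset each other, so these values alone cannot show which library is the odd one. On other measures replicate 2 stood apart from replicates 1 and 3. Its 10 most abundant genes held 8.25% of counts, against 6.8% and 6.76%, and its TMM scaling factor was 0.9278, against 0.9987 and 1. Without phod2 P- replicate 2, 208 genes rose and 395 fell in both conditions, 45.7% and 31.8% of the P+ lists then called.

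The difference between both genotype contrasts (P- minus P+) was tested in the same fit, and 643 of 20891 genes (3.08%) passed the same limits, 500 (2.39%) upward and 143 (0.685%) downward. Of the genes called in P+, 76 that rose had a smaller difference in P- and 299 that fell had a less negative one, against 11 and 4 the other way. Without phod2 P- replicate 2, 772 genes passed, and these counts were 95, 346, 14 and 3. The genes counted were picked by their P+ values, which also enter the difference, so part of this imbalance was fixed in advance. The size of that part was not tested. P- and P+ libraries of KC also differed in clock genes, as given above. The part of that clock difference in the values below was not tested either. CYP82C4, which rose in P+, had 3.13, 3.12 and 3.81 CPM in phod2 P- and 22.0, 19.8 and 23.5 CPM in KC P-, so that it fell there at a log2 fold of -2.70, and the difference was -6.97. IRT1 and FRO2 had log2 folds of -0.94 and -0.63 in P-, neither called, and differences of -3.67 and -3.76. The small loci AT1G47400 and AT1G47395 rose in both conditions, at 2.70 and 3.02 in P-.

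CHS differed as well, with 1330, 1790 and 1330 CPM in phod2 P- and 797, 768 and 769 CPM in KC P-, a log2 fold of 0.93 in P- and a difference of 2.36. In the 12 early flavonoid genes, 9 had a called difference, all of them higher in P-. Among the phosphate genes, SPX1, PAP17, PS2 and GDPD1 rose in both conditions, with differences of -1.2, -1.90, -1.71 and -1.37, and IPS1 and PEPC1 rose in both with differences of -0.04 and 0.04 that were not called. ATPS3 and PHT1;4, which rose in P+, had log2 folds of 0.93 and 0.87 in P- and were not called there, and the difference was called for ATPS3, at -2.43, and not for PHT1;4, at -0.58. All 7 triterpene genes had a called difference, from 1.02 to 2.49, and 6 of them still fell in P-. AGP30 fell in both, at -5.09 in P+ and -5.76 in P-, and the difference was not called.

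**Figure D5:**
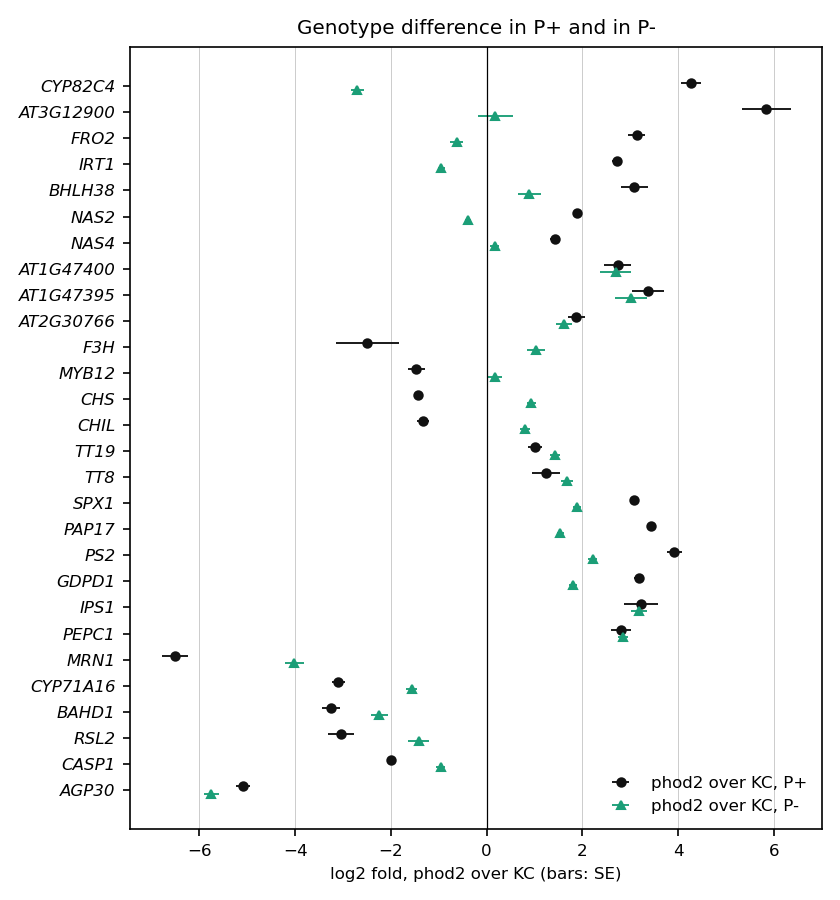
Log2 fold of phod2 over KC with its SE in P+ (circles) and in P- (triangles) for 28 genes. CYP82C4 and F3H were called on opposite sides in the 2 conditions, IPS1, PEPC1, AT1G47400 and AT1G47395 lie close together, and the triterpene genes lie left of 0 in both, nearer to it in P-.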

How the data were processed

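RNA was sequenced from 12 libraries, 3 for each of 4 groups, and 6 of them (phod2 P+ and KC P+) carry the main comparison. The deposited table gives read counts per gene and FPKM values, as the authors made them per the file headers; the FPKM values are the counts divided by gene length and library total, to within 0.005. The submitters' processing notes name the genome build mm10, a mouse build, although gene IDs and coordinates are those of Arabidopsis and matched RefSeq TAIR10.1 for 99.95% of 32548 loci. The aligner, counter and use of strand are not given in the sources used here, so overlapping and antisense genes may share reads. Spreadsheet conversion turned 23 of the 13415 deposited symbols into dates, and these were replaced by locus IDs.

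Counts were analysed with edgeR 4.0.16 in R 4.3.3. Genes were filtered with filterByExpr (smallest count 10), libraries scaled by TMM, and 1 mean per group fitted over all 12 libraries by the quasi-likelihood method, with Benjamini-Hochberg adjustment. The limits, adjusted p of at most 0.05 and at least 2-fold, are those of the design text. The SE is the size of the log2 fold over the square root of F. A fold against a group without counts is a bound, from 3 counts over the group, and count ratios have exact 95% intervals that cover counting error only. The scripts were tested on simulated counts. Alternatives used limma 3.58.1, DESeq2 1.42.0, other scalings and filters, a replicate block and the omission of each library. Total counts ran from 16821084 to 23327960.

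The genes and lists were chosen with earlier results of these data known. Genes were named by rule: 10 set genes, the 12 largest rises and 12 largest falls among genes with a symbol, groups that did not overlap and at least 1 CPM on average in the higher group, up to 4 called members of each list, the 10 called genes of highest FPKM, and the 8 strongest differences between conditions. Any further gene named was chosen after its values were seen.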

Additional observations from a re-analysis of the deposited data

Results flagged for a closer look

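Of the 133 named genes, 132 of them called in P+, 59 had a genotype contrast that differed between P- and P+. This is by edgeR's test of the difference itself. The same held for 390 of all 1545 genes called in P+ and for 3.08% of all tested genes. Values here are that difference, the log2 fold of phod2 over KC in P- minus that in P+. Genes called in P+ were picked on values that enter it, which favours a sign opposite to their P+ fold. For 56 of the 59 the difference was also called without phod2 P- replicate 2, whose deviations track gene length in the opposite sense to those of replicates 1 and 3. The 3 exceptions were ATGRP9 (0.94), BAHD1 (0.83) and NDB4 (-1.27), given at their values without it. The clock difference between the P- and P+ libraries of KC was not separated from any value listed here.

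Iron and metal genes had differences of -6.97 for CYP82C4, -5.66 for AT3G12900, -3.76 for FRO2, -3.67 for IRT1, -2.29 for NAS2, -2.19 for BHLH38 and -1.25 for NAS4. ZIP3, which fell in P+, had 2.60. Phosphate genes that rose in P+ had differences of -2.43 for ATPS3, -1.90 for PAP17, -1.71 for PS2, -1.37 for GDPD1 and -1.20 for SPX1. The regulators HRS1 and WRKY75, which fell in P+, had 1.36 and 1.57.

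Early flavonoid genes had differences of 3.53 for F3H, 2.36 for CHS, 2.12 for CHIL and 1.63 for MYB12, and the glycosyltransferase gene UGT91A1 had 4.27. Root and triterpene genes had 2.49 for MRN1, 2.19 for CYP705A12, 1.53 for CYP71A16, 1.02 for BAHD1, 1.62 for RSL2, 1.27 for the peroxidase gene AT4G26010 and 1.04 for CASP1. Wall genes had 1.78 for XTH23, 1.55 for XTH33, 1.06 for PER27, 1.37 for EXT3, 1.30 for AT2G43150 and 1.1 for ATGRP9.

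Among transporters, PIP2-4 and TIP2-3 had 1.71 and 1.65, DTX20 had 4.44, DTX3 had -1.95, NRT2.1 had -1.85 and SULTR1;3 had -2.25. Among other genes that fell in P+, AIR1 had 2.19, ROSY1 3.18, MLP328 1.40, ATDR4 1.31, BGLU22 1.67, EXL1 (AT1G35140) 2.74, SSL9 1.81, GGCT2;1 2.34, GSTU14 1.70, VSP1 2.38 and LNK1 1.43. VSP1 has the near-identical copy VSP2, and reads may have been split between them. Among other genes that rose in P+, ASN1 had -3.00, LTP4 -3.25, JAL12 -2.59, CBF2 -2.11, BCAT2 -1.33, NDB4 -1.30 and TRNS.2 (ATCG00290) -1.84, while M17 had 3.97 and CRU1 3.95.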

How the results depend on the processing

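No named gene reversed. With the 6 P+ libraries alone, 1519 genes were called (359 higher, 1160 lower). Of these, 1432 are shared with the 1545, or 92.7% of them. In that fit 127 of the named genes kept their call and LIP1P had a log2 fold of -0.733. Only 1 late anthocyanin, 1 aquaporin and 1 glutathione transferase gene then rose. With limma on log2(FPKM + 1), 627 genes were called in P+ (136 higher, 491 lower), and 624 of them are shared with the 1545, or 40.4% of these; the pseudocount compresses low genes. The difference between conditions then held 354 genes (287 upward, 67 downward). With no limit on the fold, 5878 genes passed in P+ (2620 higher, 3258 lower), 2501 for the difference (1525 upward, 976 downward), and LIP1P passed at -0.703. With limma on log2(FPKM + 1), 16 peroxidase, 3 early flavonoid, 3 root tissue and 2 suberin genes fell and no starch gene rose. In a 500-base window the element was found before 16.6% of the genes that rose. Leaving out 1 library at a time gave 1471 to 1698 genes (386 to 455 higher, 1085 to 1243 lower), a difference of 538 to 772 genes (417 to 583 upward, 120 to 189 downward), 120 to 132 of the named genes, an element share of 7.8% to 8.95% and a log2 fold of -0.734 to -0.663 for LIP1P. Of 2893 named-gene values under the alternatives, 2802 kept their call and 91 lost it, 32 of these under limma on log2(FPKM + 1). Genes that an alternative did not test are not among these values. With a filter of at least 1 CPM in 3 libraries, 124 of the 132 named genes were called.

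The replicate numbers did not pair the samples: deviations of same-numbered libraries correlated between -0.0627 and 0.0619. With the replicate number as a block, 1529 genes were called in P+ (409 higher, 1120 lower), 617 for the difference (483 upward, 134 downward), and 131 of 132 named genes, LBD29 being lost at an edgeR adjusted p of 0.056. LIP1P stayed at -0.703 and the element share was 8.37%. With 3 libraries a group, genes of a few counts, such as PAP14, F3H and LBD29, are the least certain.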

Other observations

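Some loci with sparse descriptions in the deposited table held some of the largest rises, and they were chosen here after their values were seen. Past 16-fold by the fitted fold, 10 called genes with counts in both groups were higher and 19 lower in phod2 P+. A further 14 had counts in only 1 group, 11 of them in phod2 P+ and 3 in KC P+, and for 4 of the 14 the bound from 3 counts also passed 16-fold. Of the 11, 7 also had at most 4 counts over the KC P- libraries. AT5G53240 had 54 counts in phod2 P+ and 0 in KC P+, which makes it at least 18.8-fold higher, and 58 counts in phod2 P- and 2 in KC P-. Its neighbour AT5G53230, at 21598848 to 21600008 on chromosome 5, had 118 counts in phod2 P+ and 3 in KC P+, a ratio of 41.1 with a counting interval of 13.7 to 202, and 229 counts in phod2 P- and 6 in KC P-. AT4G05380, described as a nucleoside triphosphate hydrolase, had 3.96, 4.34 and 3.81 CPM in phod2 P+ and 0.0425, 0.0546 and 0.174 CPM in KC P+. The NAC gene AT5G14490 had 47 counts in phod2 P+ and 0 in KC P+, at least 16.4-fold higher. In all of these, phod2 was above KC in every P+ library.

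Others followed the condition as well as the genotype. AT3G25240 had 80 counts in phod2 P+ and 0 in KC P+, at least 27.8-fold higher, and 1606 counts in phod2 P- and 146 in KC P-. AT5G20790 had 18, 17 and 15.8 CPM in phod2 P+ and 1.06, 0.873 and 0.916 CPM in KC P+ and rose 17.6-fold (log2 4.14 ± 0.124, edgeR adjusted p = 2.59e-11). AT5G53048, listed as other RNA and overlapping a gene on the opposite strand, had 10.8, 13.1 and 11.6 CPM in phod2 P+ and 0.383, 0.818 and 0.262 CPM in KC P+ and rose 25.1-fold.

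Defence and hormone lists are given beside the same shares of all tested genes, 1.98% higher and 5.42% lower. Of 17 salicylate and defence genes, SARD1 rose at a log2 fold of 2.09 and ALD1 fell at -2.39, with 2 genes falling without phod2 P+ replicate 3. Of 17 jasmonate genes, VSP1 fell at -1.56, and 1 other gene rose without KC P+ replicate 3. Of 11 alternative oxidase and mitochondrial retrograde genes, AT2G21640 rose at 1.48 and AT5G09570 at 1.56, the second losing its call without phod2 P+ replicate 3 or KC P+ replicate 3, at 1.43 and 1.16. Of 36 tau and phi glutathione transferase genes, 6 fell and 2 rose, GSTU14 furthest at -3.13, and 1 rose without phod2 P+ replicate 2, any 1 of the KC P+ libraries or phod2 P- replicate 2.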
